A study of Homo sapiens with 4 samples.

Results

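The genes described here are 10 genes of the NF-kB system, taken by symbol from a table of 50868 genes measured in KBM5 cells. They are the subunit genes NFKB1, NFKB2, RELA and RELB, the inhibitor genes NFKBIA and TNFAIP3, and the inflammatory targets TNF, CXCL8, IL1B and ICAM1. All 10 symbols matched 1 row each. KBM5 is an established human line from chronic myeloid leukemia in blast crisis and carries the BCR-ABL fusion kinase. It was treated with DSF, with IM or with both (IM-DSF), or left as a control (CTR), and 1 RNA-seq library was made for each of these 4 groups. DSF and IM are read as disulfiram and imatinib, a BCR-ABL kinase inhibitor. The labels state neither a dose nor a time, and all 4 groups are the same line with no further alteration named. The study's title names GPX4, an enzyme that removes lipid peroxides, and BCR-ABL as the targets combined.

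NF-kB proteins are paired transcription factors that IkB proteins hold in the cytoplasm. Signals from receptors such as those for TNF, interleukin-1 and bacterial products activate the IKK kinases, which mark IkB for destruction and free the dimers to enter the nucleus. RELA usually pairs with the product of NFKB1 in the rapid branch of the pathway and RELB with the product of NFKB2 in the slower one. Among the targets are the genes for the pathway's own inhibitors, NFKBIA and TNFAIP3, so the system feeds back on itself. In myeloid cells its best known outputs are cytokines and chemokines.

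Promoter sequences are shown because TNF and NFKBIA lay farthest below and above CTR in IM-DSF among these genes, and both are classical NF-kB targets. RefSeq windows on GRCh38.p14 matched 9 of the 10 genes, in 13 windows; RELB was not matched. The 250 bases before the annotated start of TNF (chr6:31575315-31575564, plus strand) and of NFKBIA (chr14:35404750-35404999, minus strand) read as follows, 5′ to 3′, with capitals for matches to the motifs searched.
TNF: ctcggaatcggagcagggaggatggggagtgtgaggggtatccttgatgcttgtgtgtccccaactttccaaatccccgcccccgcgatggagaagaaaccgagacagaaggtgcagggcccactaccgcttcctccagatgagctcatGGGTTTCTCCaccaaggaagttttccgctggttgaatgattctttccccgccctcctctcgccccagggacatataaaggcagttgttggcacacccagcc
NFKBIA: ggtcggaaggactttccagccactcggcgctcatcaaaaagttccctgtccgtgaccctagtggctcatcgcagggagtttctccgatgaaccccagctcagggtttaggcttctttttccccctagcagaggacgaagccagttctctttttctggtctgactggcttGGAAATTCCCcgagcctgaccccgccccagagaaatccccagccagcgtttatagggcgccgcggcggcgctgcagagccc
The motifs were GGG followed after any 5 bases by CC, then GGAANTTCC, and the NF-kB consensus, each on both strands. GGAANTTCC reads alike on both strands, and every consensus match is also a match of the first motif. The first occurred in 54.4% of 35116 RefSeq windows, the second in 0.826% and the consensus in 5.21%.

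TNF matched the loosest motif alone, at -101 to -92 from its start, while NFKBIA matched all 3 at -81 to -72. GGAANTTCC was found in CXCL8, ICAM1, NFKB1 and NFKBIA, and the consensus in NFKB1, NFKB2, NFKBIA and TNFAIP3. IL1B held no match in its window. For comparison, 1 short stretch is given for each of the other genes with a match of the second motif or the consensus, with that match in capitals.
CXCL8: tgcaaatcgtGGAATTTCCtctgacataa
ICAM1: gctttagcttGGAAATTCCggagctgaag
NFKB1: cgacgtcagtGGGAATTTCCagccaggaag
NFKB2: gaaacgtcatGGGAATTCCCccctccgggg
TNFAIP3: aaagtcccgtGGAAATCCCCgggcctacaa
They lie at chr4:73740468-73740496, chr19:10270924-10270952, chr4:102501300-102501329, chr10:102394461-102394490 and chr6:137867194-137867223, all on the plus strand. A match is a string of letters and not a measured binding site.

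The values are FPKM, a fragment number divided by gene length and by depth, so levels can be compared between genes. Depth, in units of 1000000 fragments, was 14.7 in DSF, 15.8 in IM, 12.4 in IM-DSF and 14.5 in CTR, as recovered from the steps between low values. With 1 library per group no test across cultures exists. A gene was called higher or lower when log2(FPKM + 1) differed by at least 1, among the 11004 genes whose mean over the libraries was 1 FPKM or more. Of the 10 genes, 8 passed that filter, while ICAM1 (mean 0.962 FPKM) and IL1B (mean 0.0629 FPKM) did not. Some myeloid granule genes marked the line, with PRTN3 at 769 to 1239 FPKM and ELANE at 372 to 619 FPKM, whereas the progenitor markers CD34 and KIT were at or near 0 in all 4 libraries. MPO, on the same marker list, was far below PRTN3 and ELANE, at 2.49 to 3.49 FPKM. Erythroid markers summed to at most 0.703 FPKM. Lymphoid markers summed to 11.2 to 13.7 FPKM, nearly all of it NKG7, a granule protein gene of cytotoxic lymphocytes (10.8 to 13.3 FPKM).

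TNF, the gene of the inflammatory cytokine tumor necrosis factor (ENSG00000232810, chromosome 6, 31575567 to 31578336, GRCh38.p14), had the widest relative spread of the 10 genes, with the highest library at 5.46 times the lowest. Its level was 2.19 FPKM in DSF, 1.43 FPKM in IM, 0.911 FPKM in IM-DSF and 4.98 FPKM in CTR. Every drug-treated library was thus below CTR, and the library with both drugs was lowest. GENCODE 29 gives TNF 1 transcript of 1676 bases in 4 exons, with no other gene over it. For this gene the fragment numbers could therefore be recovered, and they were 54 in DSF, 38 in IM, 19 in IM-DSF and 121 in CTR, each within 0.05 of a whole number.

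Counting error on those fragments puts TNF at 1.65 to 2.86 FPKM in DSF, 1.01 to 1.97 FPKM in IM, 0.549 to 1.42 FPKM in IM-DSF and 4.13 to 5.95 FPKM in CTR (exact 95% Poisson intervals). The CTR interval overlapped none of the other 3, whereas the IM interval overlapped both the DSF and the IM-DSF interval. TNF fell in IM to 0.288 times CTR (95% interval 0.195 to 0.418), a difference of -1.30 on the log2(FPKM + 1) scale. It fell in IM-DSF to 0.183 times CTR (0.107 to 0.299), a difference of -1.65. In DSF it was at 0.440 times CTR (0.313 to 0.612), and the difference of -0.91 was just short of the size rule; with a pseudocount of 0.1 it was -1.15 and past it. Intervals of ratios are exact conditional binomial ones, are not adjusted for the number of genes or contrasts, and cover counting error only. In RNA from a whole culture, fewer cells with TNF mRNA and less TNF mRNA per cell cannot be told apart.

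Few genes differed from CTR downward by as much as TNF did. Of the 11004 genes, 86 had a lower difference than TNF in DSF. The number was 47 for IM and 41 for IM-DSF. The size rule called 0.573% of genes lower in DSF against CTR, 0.891% lower in IM against CTR and 1.74% lower in IM-DSF against CTR. The only one of the 8 genes past the filter to be called in these 3 contrasts was TNF, in IM and in IM-DSF, and none was called higher, where the rule called 0.545%, 1.54% and 2.54% of all genes higher. The 3 contrasts share the single CTR library and are not independent of each other.

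**Figure D1:**
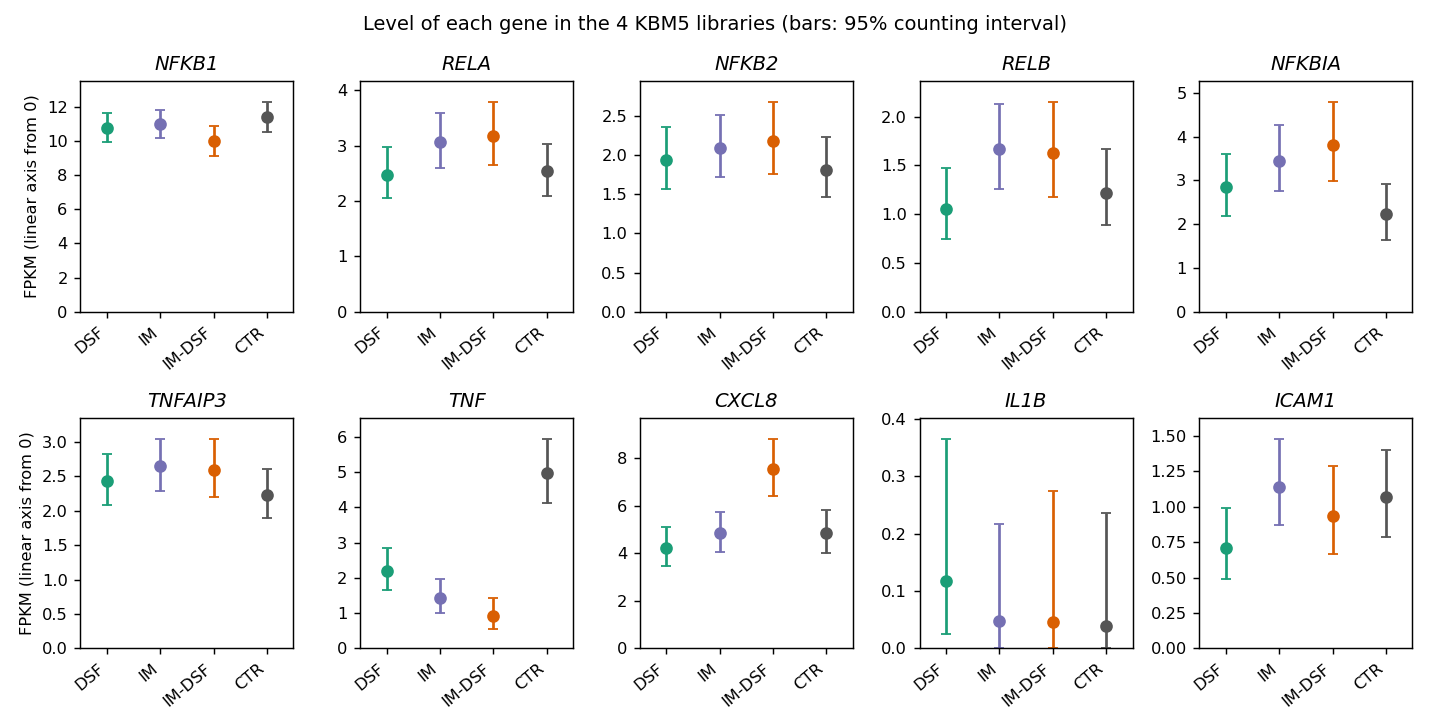
FPKM (y axis, linear from 0) of the 10 genes in the DSF, IM, IM-DSF and CTR libraries (x axis), 1 library each; points are the deposited values and bars their 95% counting intervals, exact for TNF and approximate for the others. TNF runs from 0.911 FPKM in IM-DSF to 4.98 FPKM in CTR, while CXCL8 is highest in IM-DSF at 7.54 FPKM.

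The sum of monocyte and macrophage markers went the other way from TNF, though not each marker did. Their summed level over 10 genes was 7.32 FPKM in DSF, 11.8 FPKM in IM, 20.7 FPKM in IM-DSF and 4.89 FPKM in CTR. Of these 10, 3 passed the filter, and all 3 were called higher in IM-DSF than in CTR: MS4A6A (9.31 and 0.929 FPKM), S100A9 (6.41 and 2.03 FPKM) and CSF1R, the receptor of a macrophage growth factor (2.38 and 0.434 FPKM). MS4A6A and CSF1R were below 1 FPKM in CTR and passed the filter only through the drug-treated libraries. That all 3 were higher is therefore partly built in by the filter. In IM, S100A9 was near CTR (2.08 FPKM). CD14, a defining monocyte marker, stayed at 0.0353 to 0.230 FPKM. FCGR3A was listed at 0 in IM and IM-DSF, FCN1 at 0 in IM-DSF, and MRC1 at 0 in DSF and IM-DSF. In CTR they were near 0 too, at 0.0151, 0.0261 and 0.0133 FPKM, or about 1, 2 and 1 fragments. The myeloid granule list also summed higher in the drug-treated libraries, to 2181 FPKM in DSF, 2605 FPKM in IM and 2282 FPKM in IM-DSF, against 1657 FPKM in CTR. PRTN3 (989 FPKM) and ELANE (619 FPKM) held much of the IM-DSF sum. Of its 10 genes past the filter, AZU1, a neutrophil granule protein gene, was called higher in IM (241 FPKM) and in IM-DSF (247 FPKM) than in CTR (111 FPKM). Not every gene of the list rose. The DSF library had 8 of the 10 above CTR and 2 below, and the IM library 9 and 1. With both drugs 6 were above and 4 below, at a median of 0.11 log2 units. SPI1 was 1 of those below, at 52.7 FPKM, against 58.1 FPKM in CTR. PECAM1, the 1 gene past the filter among 6 endothelial and fibroblast markers, was called higher in IM-DSF (4.23 FPKM) than in CTR (1.37 FPKM), while the endothelial marker CDH5 was listed at 0 in every library. Whether these shifts bear on TNF was not tested.

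CXCL8, the gene of the neutrophil-attracting chemokine interleukin-8 (ENSG00000169429, chromosome 4, 73740506 to 73743716), was highest with both drugs together. It had 4.22 FPKM in DSF, 4.83 FPKM in IM, 7.54 FPKM in IM-DSF and 4.86 FPKM in CTR. The single-drug libraries were near CTR, at 0.869 times (0.665 to 1.14) in DSF and 0.995 times (0.770 to 1.28) in IM, both with intervals that include 1. IM-DSF was at 1.55 times CTR (1.22 to 1.99), 1.56 times IM (1.23 to 1.99) and 1.79 times DSF (1.39 to 2.30). None of these passed the size rule, the largest being 0.71 log2 units over DSF, which 370 of the 11004 genes exceeded.

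IL1B, the gene of interleukin-1 beta (ENSG00000125538, chromosome 2, 112829751 to 112836903), was barely detected. Its 0.117 FPKM in DSF, 0.0485 FPKM in IM, 0.0462 FPKM in IM-DSF and 0.0397 FPKM in CTR stand for about 3, 1, 1 and 1 fragments, so no fold is given. ICAM1, the gene of an adhesion molecule that binds leukocyte integrins (ENSG00000090339, chromosome 19, 10270835 to 10286615), had 0.705 FPKM in DSF, 1.14 FPKM in IM, 0.936 FPKM in IM-DSF and 1.07 FPKM in CTR. DSF was lowest, at 0.662 times CTR (0.421 to 1.06), and that interval includes 1. Genes on the opposite strand overlap ICAM1, and whether the counting used strand is not given in the sources used here.

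Of the subunit genes, NFKB1, NFKB2 and RELA varied least, with the highest library at 1.14, 1.20 and 1.29 times the lowest, and RELB more, at 1.58 times. NFKB1, which encodes the p105 precursor of the p50 subunit (ENSG00000109320, chromosome 4, 102501329 to 102617302), was the most abundant of the 10 in every library. It had 10.8 FPKM in DSF, 10.99 FPKM in IM, 9.98 FPKM in IM-DSF and 11.4 FPKM in CTR. With about 507 to 710 fragments per library, the IM-DSF ratio to CTR, 0.876, had an interval of 0.779 to 0.984. RELA, the gene of the main activating subunit p65 (ENSG00000173039, chromosome 11, 65653596 to 65663094), had 2.47 FPKM in DSF, 3.06 FPKM in IM, 3.18 FPKM in IM-DSF and 2.54 FPKM in CTR. It overlaps a gene on the opposite strand.

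NFKB2, which encodes the p100 precursor of p52 (ENSG00000077150, chromosome 10, 102394110 to 102402529), had 1.94 FPKM in DSF, 2.10 FPKM in IM, 2.18 FPKM in IM-DSF and 1.81 FPKM in CTR. RELB, the gene of its usual partner (ENSG00000104856, chromosome 19, 45001430 to 45038198), had 1.05 FPKM in DSF, 1.67 FPKM in IM, 1.63 FPKM in IM-DSF and 1.22 FPKM in CTR. In NFKB2, RELA and RELB both libraries with IM lay above both without it, an order that 5 of the 10 genes had, NFKBIA and TNFAIP3 being the others. How many of all genes had this order was not counted, so nothing is drawn from it. The IM-DSF ratios to DSF were 1.29 (0.990 to 1.67) for RELA and 1.55 (0.956 to 2.41) for RELB, and both intervals include 1. The ratios of IM to CTR, 1.21 (0.943 to 1.55) for RELA and 1.37 (0.888 to 2.05) for RELB, also had intervals that include 1.

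The inhibitor genes did not follow TNF. NFKBIA, which encodes IkB-alpha, the protein that retains NF-kB in the cytoplasm (ENSG00000100906, chromosome 14, 35401511 to 35404749), had 2.84 FPKM in DSF, 3.45 FPKM in IM, 3.81 FPKM in IM-DSF and 2.23 FPKM in CTR. The 4 libraries stood in the reverse of their order for TNF. NFKBIA was at 1.27 times CTR in DSF (0.873 to 1.89), 1.55 times in IM (1.09 to 2.26) and 1.71 times in IM-DSF (1.19 to 2.52). On the log2(FPKM + 1) scale the IM-DSF difference was 0.57, inside the central 95% of all genes (-0.89 to 1.002). TNFAIP3, which encodes the ubiquitin-editing enzyme A20 (ENSG00000118503, chromosome 6, 137867188 to 137883312), had 2.43 FPKM in DSF, 2.65 FPKM in IM, 2.59 FPKM in IM-DSF and 2.23 FPKM in CTR. All its ratios to CTR had intervals that include 1. TNFAIP3 overlaps a gene on the opposite strand.

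**Figure D2:**
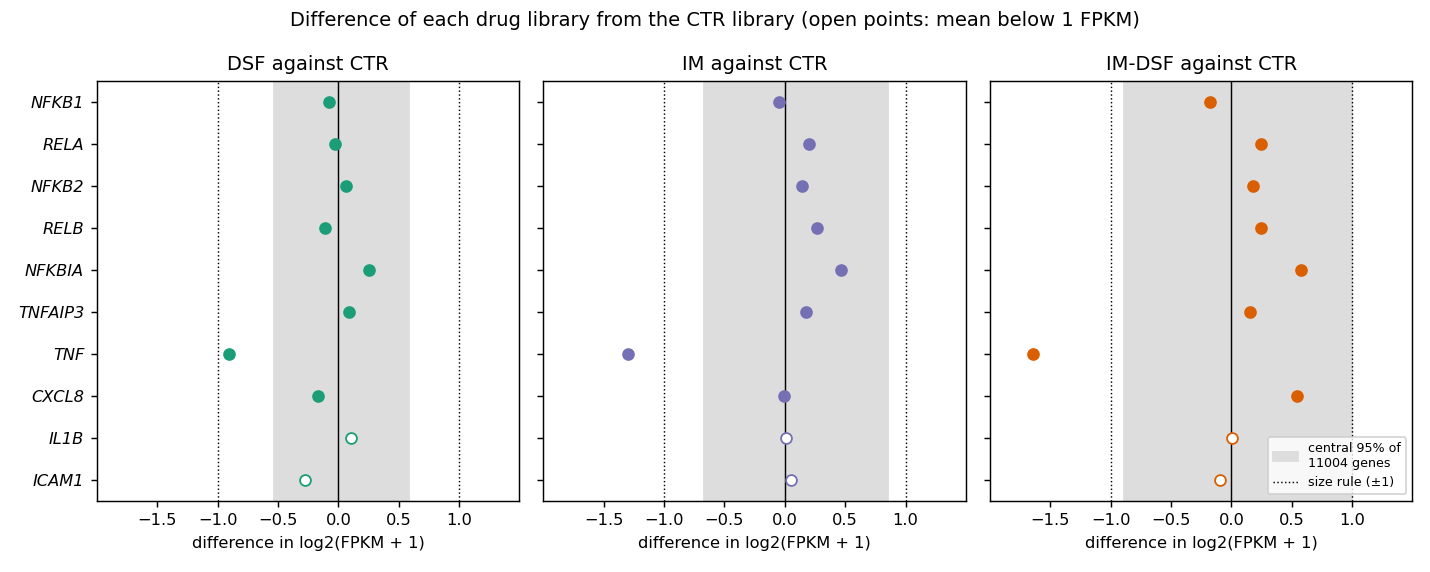
Difference in log2(FPKM + 1) (x axis) of each gene (rows) in DSF, IM and IM-DSF from CTR; grey marks the central 95% of 11004 genes, dotted lines the size rule, and open points the genes with a mean below 1 FPKM. TNF lies left of the grey band in all 3 panels, at -0.91, -1.30 and -1.65, and the other 9 genes lie inside it.

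The rank of TNF among the 10 genes shows the same change in another way. With rank 1 for the highest level, TNF held rank 6 in DSF, 8 in IM, 9 in IM-DSF and 2 in CTR. CXCL8 held rank 2 in all 3 drug-treated libraries and rank 3 in CTR. NFKBIA held rank 3 in the drug-treated libraries and rank 5 in CTR. RELA held rank 4 and IL1B rank 10 in every library. Many neighbours in these orders have overlapping counting intervals, as TNF and CXCL8 do in CTR (4.13 to 5.95 and 4.02 to 5.80 FPKM).

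Counting error alone is a low bar in these data. In DSF against CTR the ratio interval of 30.2% of all genes left out 1, in IM against CTR that of 50.5%, and in IM-DSF against CTR that of 54.6%. Among the 8 genes past the filter it was 1 (TNF), 2 (TNF and NFKBIA) and 4 (TNF, NFKBIA, CXCL8 and NFKB1), shares no larger than those of all genes. The median difference of the 8 was -0.05, 0.16 and 0.21 log2 units, beside 0.000075, 0.024 and 0.021 for all genes.

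IM added to DSF and DSF added to IM can each be set beside a contrast with which it shares no library. TNF was at 0.416 times DSF in IM-DSF (0.233 to 0.713), a log2 difference of -0.74, beside -1.30 for IM against CTR. It was at 0.635 times IM in IM-DSF (0.346 to 1.13), a log2 difference of -0.35, beside -0.91 for DSF against CTR. TNF was thus lower with each drug whether or not the other was present, although the interval for DSF added to IM includes 1. NFKBIA was higher in all 4 of these contrasts, by 0.46 for IM against CTR, 0.32 for IM-DSF against DSF, 0.11 for IM-DSF against IM and 0.25 for DSF against CTR. Only its ratio interval for IM against CTR left out 1. The intervals for IM-DSF against DSF (0.952 to 1.91) and against IM (0.799 to 1.53) included it, as did that for DSF against CTR. These signs follow from the order of the 4 libraries given above and add nothing to it. No member was called in IM-DSF against DSF, where the size rule called 2.37% of genes, or in IM-DSF against IM, where it called 1.74%. The ratio interval left out 1 for TNF and CXCL8 in the first and for CXCL8 in the second, against 47.4% and 30.5% of all genes.

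**Figure D3:**
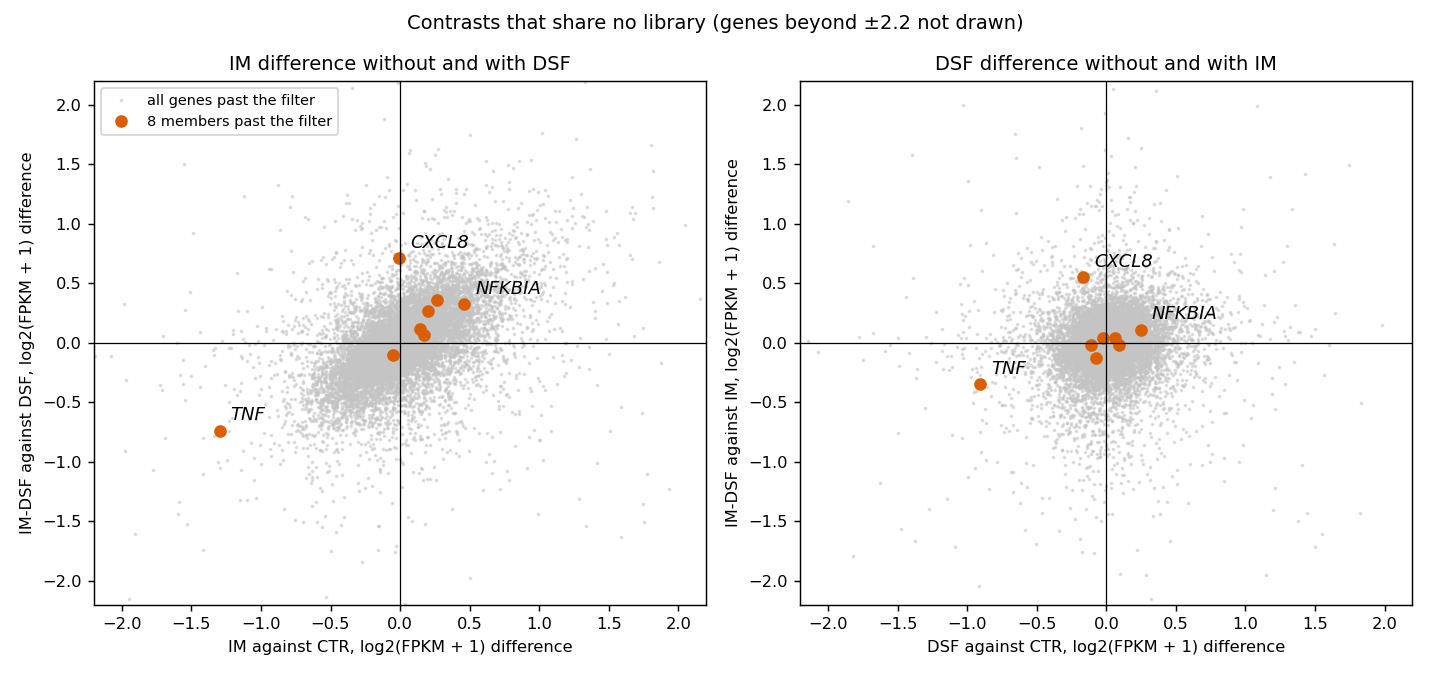
Left, the IM difference in log2(FPKM + 1) without DSF (x axis) and with DSF (y axis); right, the DSF difference without IM (x axis) and with IM (y axis). Grey points are genes past the filter, those outside the axes not drawn, and orange points the 8 members among them. TNF lies in the lower left of both panels (-1.30 and -0.74, then -0.91 and -0.35), and CXCL8 is well above 0 on the y axis of both (0.71 and 0.55).

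Additivity on the log2 scale was checked by taking the differences of DSF and of IM from that of IM-DSF, all against CTR. This departure was positive for TNF (0.56) and CXCL8 (0.72) and between -0.14 and 0.09 for the other 6 genes past the filter. By these values TNF in IM-DSF was less far below CTR than the single-drug differences add up to. No counting interval was computed for any departure, and TNF had 19 fragments in IM-DSF, so no departure from additivity is claimed. The TNF and CXCL8 values both lay inside the central 95% of all genes (-0.85 to 0.75), and no member reached 1 unit, as 3.06% of all genes did.

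The wider pathway was described with 9 lists by role, 116 genes in all, of which 72 passed the filter. TNF was the only one called in IM against CTR. In IM-DSF against CTR, TNF was called lower and CARD9, an adaptor that carries signals from fungal receptors, higher, at 15.2 FPKM in IM-DSF, against 7.04 FPKM in CTR (2.16-fold, 1.82 to 2.55). The CARD9 difference of 1.009 log2 units was only just past the size rule, and its value under other settings was not checked. CARD9 overlaps DNLZ on its own strand. None was called in DSF against CTR or in IM-DSF against DSF. In IM-DSF against IM only CFLAR was called, the gene of the caspase-8 inhibitor FLIP, which overlaps small genes on its own strand, at 7.08 FPKM in IM-DSF, against 2.44 FPKM in IM (2.90-fold, 2.62 to 3.20). The share of all genes called, higher or lower, was 1.12%, 2.43% and 4.28% for DSF, IM and IM-DSF against CTR. For the list counts above CTR that follow, the exact share of all genes above CTR was not counted. In IM-DSF against CTR the median of all genes past the filter was 0.021. Of these genes 5642 lay above and 5362 below 0.0091 log2 units, a value close to CTR, so all genes were split nearly evenly. Whether any list departs from that split was not tested.

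The remaining subunit gene, REL, had its highest library at 2.11 times its lowest. It encodes c-Rel and had 4.24 FPKM in DSF, 8.30 FPKM in IM, 6.56 FPKM in IM-DSF and 3.93 FPKM in CTR. IM was at 2.11 times CTR (1.92 to 2.32), a log2 difference of 0.92, short of the size rule. Both libraries with IM were above both without it, as in 4 of the 5 subunit genes, NFKB1 being the exception. Here too the order was not counted over all genes. REL overlaps 2 small genes on its own strand. Counted with REL, 4 of 5 subunit genes lay above CTR in IM-DSF, with a median of 0.24, and NFKB1 below.

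Among the IkB family, NFKBIB, a close relative of NFKBIA, lay on the other side of CTR, at 3.40 FPKM in IM-DSF, against 4.89 FPKM in CTR (0.694-fold, 0.517 to 0.914). COMMD1, which promotes removal of RELA, had 3.61 FPKM in IM-DSF, against 4.88 FPKM in CTR, with an interval of the ratio (0.492 to 1.12) that includes 1. The list was split, with 3 of 6 genes above CTR and a median of -0.03. Of 10 genes for IKK and TAK1 kinases and their partner proteins, 7 lay above CTR in IM-DSF (median 0.21). MAP3K8, a kinase that links IKK to ERK signalling, had 2.49 FPKM in IM-DSF, against 1.31 FPKM in CTR (1.91-fold, 1.36 to 2.67). TAB3, an adaptor of the kinase TAK1, had 2.09 and 1.26 FPKM in the same libraries. CHUK, which encodes IKK-alpha and overlaps ERLIN1 on its strand, had 4.51 FPKM in IM-DSF, against 6.46 FPKM in CTR.

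Of 9 genes for ubiquitin editors and feedback proteins, 5 lay above CTR in IM-DSF, with a median of 0.0079. RNF11, a partner of A20, had 3.67 FPKM in DSF, 4.04 FPKM in IM, 3.61 FPKM in IM-DSF and 7.80 FPKM in CTR. The drug-treated libraries spanned 3.61 to 4.04 FPKM and CTR stood above them, with IM-DSF at 0.463 times CTR (0.376 to 0.563). CYLD, a deubiquitinase that restrains the pathway, had 1.85 FPKM in IM-DSF, against 1.03 FPKM in CTR. ITCH, a ubiquitin ligase of the A20 complex that overlaps other genes on its strand, had 4.87 FPKM in IM-DSF, against 7.07 FPKM in CTR.

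Adaptors and ubiquitin ligases had the highest list median in IM-DSF against CTR (0.38), with 12 of 14 above CTR. Of these, 1 was called higher, CARD9, only just past the size rule. Of all genes, 2.54% were called higher in that contrast. SHARPIN, a component of the linear ubiquitin ligase, had 6.88 FPKM in IM-DSF, against 4.44 FPKM in CTR. TRAF2, an adaptor of TNF receptors, had 10.9 FPKM in IM-DSF, against 16.0 FPKM in CTR. Among receptors 5 of 7 lay above CTR in IM-DSF (median 0.12). TLR2, a receptor for bacterial lipoproteins, had 13.4 FPKM in DSF, 16.4 FPKM in IM, 22.0 FPKM in IM-DSF and 12.2 FPKM in CTR. TNFRSF1B, a receptor for TNF, was abundant in all libraries, at 50.01 FPKM in DSF, 57.9 FPKM in IM, 58.1 FPKM in IM-DSF and 46.1 FPKM in CTR. The other TNF receptor gene, TNFRSF1A, had 15.6 FPKM in IM-DSF, against 15.1 FPKM in CTR. IL1RAP, the accessory chain of the interleukin-1 receptor, had 1.79 FPKM in IM-DSF, against 2.78 FPKM in CTR.

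Most cytokine targets were silent or nearly so in these cells. Of 20 cytokine and chemokine genes 5 passed the filter, and 4, 6, 8 and 6 were listed at 0 in DSF, IM, IM-DSF and CTR. LTA and LTB, the lymphotoxin genes beside TNF, stayed at or below 0.243 FPKM in every library. CCL5, a chemokine gene, had 9.87 FPKM in DSF, 11.05 FPKM in IM, 12.9 FPKM in IM-DSF and 8.90 FPKM in CTR, the reverse order of TNF. Of 8 adhesion and surface targets 3 passed the filter, ICAM1 was just below it, and CD69, CD80, SELE and VCAM1 were at or near 0. CD83, a surface protein of activated myeloid cells, had 14.1 FPKM in DSF, 12.8 FPKM in IM, 11.8 FPKM in IM-DSF and 17.1 FPKM in CTR, the same order as TNF with a smaller range. PLAUR (2.28 FPKM in IM-DSF and 2.79 FPKM in CTR) and CD44 (1.25 and 1.18 FPKM) had ratio intervals that include 1.

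Survival and stress targets were divided, with 6 of 13 above CTR in IM-DSF (median -0.03). SQSTM1, the autophagy receptor p62, had 12.8 FPKM in IM-DSF, against 8.86 FPKM in CTR. IER5, an immediate early gene, had 2.21 FPKM in IM-DSF, against 3.47 FPKM in CTR. In IM-DSF every list thus held genes on both sides of CTR, whereas in IM, as in DSF, all 3 adhesion and surface genes lay below it. In IM the CD44 difference was only -0.0016 log2 units. The IM ratio intervals of CD44 (0.754 to 1.33) and PLAUR (0.565 to 1.18) included 1. The 5 cytokine genes past the filter, TNF among them, had a median of 0.13 in IM-DSF and of -0.0063 in IM.

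**Figure D4:**
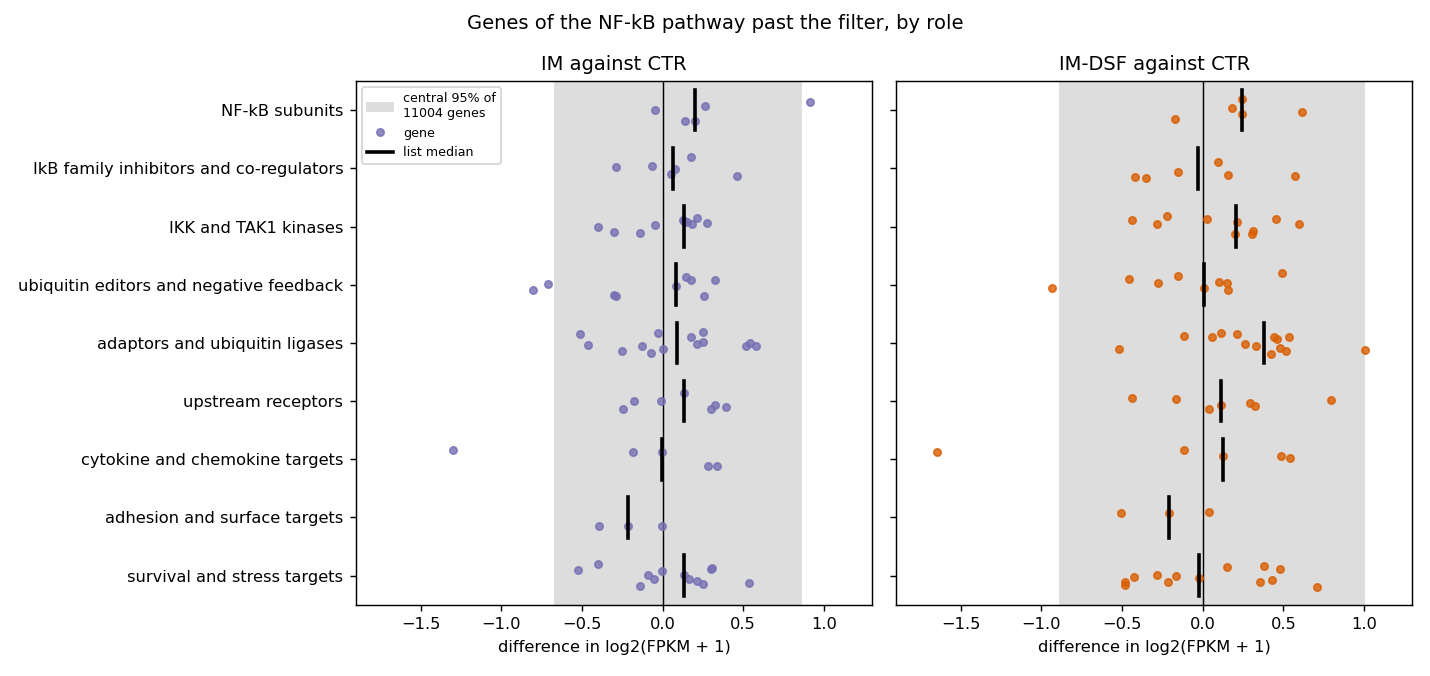
Difference in log2(FPKM + 1) (x axis) from CTR in IM (left) and IM-DSF (right) for each gene past the filter (points) in 9 role lists (rows); black bars are list medians and grey the central 95% of 11004 genes. TNF is the point at -1.30 and -1.65 in the cytokine row, and the list medians lie between -0.21 and 0.38.

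Genes whose pattern was most like those of TNF and NFKBIA were ranked by Euclidean distance over the 3 log2 differences from CTR, among 9365 protein-coding genes. The nearest to TNF was XBP1, which encodes a regulator of the response to misfolded protein, with 9.28 FPKM in DSF, 8.39 FPKM in IM, 5.603 FPKM in IM-DSF and 19.0 FPKM in CTR (distance 0.22). UBE2Z, a ubiquitin-conjugating enzyme, had 3.90, 2.33, 2.11 and 6.79 FPKM in the same libraries (distance 0.41), and FP565260.3 was the other of the nearest 3 (distance 0.40). The nearest to NFKBIA were MTHFD2L, ANKZF1 and RNF122, at distances of 0.016 to 0.022.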

How the data were processed

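RNA libraries were made with a stranded mRNA kit, per the labels' protocols, 1 for each of the 4 groups. The authors deposited 1 table of FPKM for 50868 genes, per the file headers. The submitters' processing notes list HISAT2 2.0.4 and the build GRCh38.p14. Which counter, annotation release, gene lengths and strand setting were used was not given in the sources used here.

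Groups were taken from the sample titles. The step of 1 fragment was found in single-exon genes with GENCODE 29 lengths. FPKM times length was then whole, within 0.05 and below 200 fragments, for 97.2% (IM-DSF) to 99.6% (IM) of genes with several exons and 1 transcript, but for about 10% of genes with several transcripts (9.62% in DSF to 10.4% in CTR). TNF has 1 transcript. For the others fragments were approximated from the longest protein-coding transcript, so their intervals are approximate. PCR copies are not independent molecules, so intervals cover counting error only. No count test was run.

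Differences are of log2(FPKM + 1), which understates low genes, with a mean over the libraries of 1 FPKM or more as filter and 1 log2 unit as size rule. The size rule and intervals were tested on simulated counts with Poisson error only, without variation between cultures or PCR copies. The members and lists were chosen with earlier results of these data known. Named genes are the 10 members, list genes past the size rule, up to 3 per list with the largest difference in IM-DSF against CTR, and the 3 nearest in pattern to TNF and NFKBIA. Others named (TNFRSF1A, LTA, LTB, CD69, CD80, SELE, VCAM1, TRAF3, BIRC2, IRAK4, BCL2A1 and marker genes) were chosen after their values were seen. Alternatives tried were no filter, a filter at 5 FPKM, a pseudocount of 0.1, and scaling to TPM, by median of ratios or by trimmed mean. Python 3.11.15, numpy 2.4.6, pandas 2.3.3 and scipy 1.17.1 were used.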

Additional observations from a re-analysis of the deposited data

Results flagged for a closer look

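One library per group allows no test of a difference between differences, so the genes below are given because 1 drug's difference from its comparison library had opposite signs without and with the other drug. That difference was not tested. CXCL8 differed by 0.55 log2 units in IM-DSF against IM and by -0.17 in DSF against CTR. It differed by 0.71 in IM-DSF against DSF and by -0.0063 in IM against CTR, so that it was higher where both drugs were present. TNFAIP3 differed by -0.021 in IM-DSF against IM and by 0.088 in DSF against CTR. RELA differed by 0.042 in IM-DSF against IM and by -0.027 in DSF against CTR. The TNFAIP3 value in IM-DSF against IM changed sign, to 0.020, after rescaling to TPM. For TNFAIP3 and RELA the ratio intervals include 1 in both contrasts.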

How the results depend on the processing

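No paired analysis was possible because each group has 1 library. With a pseudocount of 0.1, and likewise after rescaling to TPM, 1 member (TNF) was called in DSF against CTR and 1 (TNF) in IM-DSF against DSF, where log2(FPKM + 1) called 0. With a mean of at least 5 FPKM TNF was no longer tested and 0 members were called in IM and in IM-DSF against CTR. Over 6 settings the TNF difference ranged from -1.73 to -1.30 in IM against CTR and from -2.33 to -1.65 in IM-DSF against CTR. Under the other pseudocount and the 3 other scalings, each of 160 values of single genes moved by no more than the half-width of its 95% counting interval. That half-width is of the plain ratio and is wide for low counts, so it is a lenient bar. TNF in IM-DSF against CTR moved from -1.65 to -2.33 and stayed within it. The sign changed for TNFAIP3 and RELB in IM-DSF against IM after rescaling to TPM (0.020 and 0.015). With fragments taken from the joined length of all exons, a choice made after seeing the data, 2 members had an interval without 1 in IM-DSF against IM (CXCL8 and NFKB1) and 5 in IM-DSF against DSF (TNF, CXCL8, NFKBIA, RELA and RELB). RELA then also left out 1 in IM and in IM-DSF against CTR. Depth limits IL1B, with 1 to 3 fragments, and TNF in IM-DSF, with 19.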

Other observations

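Among the wider pathway genes, CFLAR, TRAF3 and BIRC2, picked after their values were seen, were lowest in IM and highest in IM-DSF. IRAK4 (3.47 and 4.85 FPKM) and TNFRSF1A (12.6 and 15.6 FPKM) had these extremes too, and their share among all genes was not counted. CFLAR had 4.57 FPKM in DSF, 2.44 FPKM in IM, 7.08 FPKM in IM-DSF and 3.95 FPKM in CTR. TRAF3, which holds back the slower NF-kB branch, had 1.66 FPKM in DSF, 0.912 FPKM in IM, 2.67 FPKM in IM-DSF and 1.63 FPKM in CTR. BIRC2, the gene of the ubiquitin ligase cIAP1, had 3.43 FPKM in DSF, 2.31 FPKM in IM, 4.93 FPKM in IM-DSF and 3.71 FPKM in CTR. Their departures from additivity were 1.06, 0.93 and 0.93 log2 units, where 3.06% of all genes reached 1 unit in either direction. All 3 genes have several annotated transcripts (25, 9 and 14), so their fragments could not be recovered exactly. CFLAR and TRAF3 also overlap small genes on their own strand.

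BCL2A1, likewise picked after its values were seen and an NF-kB target that protects myeloid cells from apoptosis, was below the filter and also low in IM, with 0.701 FPKM in DSF, 0.103 FPKM in IM, 0.349 FPKM in IM-DSF and 0.898 FPKM in CTR, or about 11, 2, 4 and 13 fragments.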
